A study of Mus musculus with 8 samples.

Results

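The 9 genes described here are isozymes and carriers of glucose metabolism that differ between liver cell types: the gluconeogenic enzymes *Pck1* and *Fbp1*, the hexokinases *Hk1* and *Hk2*, the pyruvate kinases *Pklr* and *Pkm*, the glucose transporters *Slc2a1* (GLUT1) and *Slc2a2* (GLUT2), and the lactate dehydrogenase subunit *Ldhb*. They were taken by name from the count table of the study, which lists 46517 genes besides the spike-ins, and they were described across cell classes, the annotation of the cells and the clusters within each class. All 9 were measured and none was dropped by a filter in the comparisons between cell populations. A further list of 63 genes of glycolysis, gluconeogenesis, glucose and lactate transport, pyruvate entry into mitochondria, glycogen and fructose was counted beside them.

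Glucose enters a cell through a transporter of the SLC2A family and is held there once a hexokinase has added a phosphate. *Hk1* and *Hk2* bind glucose tightly and are slowed by their own product. Pyruvate kinase closes glycolysis, with *Pklr* encoding the forms of liver and red blood cells and *Pkm* encoding the forms of most other tissues. *Pck1* and *Fbp1* catalyse steps of the reverse route, by which hepatocytes make glucose for the blood. *Slc2a2* is a transporter of low affinity that carries glucose in both directions, and *Slc2a1* is a transporter of high affinity found in many cell types. *Ldhb* and *Ldha* encode the 2 main subunits of lactate dehydrogenase, which interconverts pyruvate and lactate. Hepatocytes near the portal vein are known for gluconeogenesis and those around the central vein for glycolysis.

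The study sequenced single cells from livers of healthy adult mice by Smart-seq2, a full-length method without molecular identifiers, after sorting into plates. The mice were C57BL6/J and reporter strains in which the promoters of *Pdgfrb*, *Pdgfra*, *Cspg4*, *Acta2* or *Cldn5* drive a fluorescent protein from a heterozygous transgene or allele, they were from 8 weeks to a year old, and no treatment was given. Mesenchymal cells were sorted on the *Pdgfrb*, *Pdgfra* and *Acta2* reporters or an antibody to PDGFRA, endothelial cells on CD31, VE-cadherin or the *Cldn5* reporter, cholangiocytes on EPCAM, Kupffer cells on CD68, and hepatocytes without selection, so the number of cells per class reflects the sort. The series holds 8 samples, a male and a female pool of each of the 4 classes endothelial, immune, mesenchymal and parenchymal cells. Here the parenchymal class was split by cluster into hepatocytes (#p1, #p3, #p4 and #p5) and cholangiocytes (#p2). The pools held 201 male hepatocytes, 157 male and 37 female cholangiocytes, 655 and 451 endothelial cells, 255 and 396 immune cells, and 998 and 339 mesenchymal cells. The parenchymal female pool had only 2 hepatocytes, which entered no comparison, so hepatocytes were represented by male cells alone. The clusters and annotation of the study were used, and they had been defined on these same transcriptomes. The labels do not name the mice of a cell.

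A cell had between 47063 and 1128421 counts, the median being 228708, and the sums over the cells of a population and pool ranged from 6241506 to 218419420 counts. Levels are given in CPM, counts per 1000000 counts of such a sum, for the male pool first and the female pool second. At an equal depth of 50000 counts per cell the female cells showed more genes in each of the 4 populations with both pools, for example a median of 3630.5 against 2133 genes in immune cells. All 22 plates held cells of a single sex, so sex, plate and mice cannot be told apart, and the spread between pools includes all of them. Hepatocyte transcripts were counted in other cells too: over 40 sums of annotated cells outside hepatocytes, *Alb* stood at 0.531 to 60.0% of its hepatocyte level with a median of 3.15%. The highest shares, 52.2 and 60.0%, were those of cholangiocytes, and the largest elsewhere was 17.2%. The summed level of 9 hepatocyte markers, with both sums of cholangiocytes at the top, was 0.392 to 27.2% of that in hepatocytes. The defining markers of each class were checked, and the periportal markers *Cps1* and *Cyp2f2* were at 0 in the female cholangiocytes.

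Differences between populations were tested with the quasi-likelihood test of edgeR on these sums, each population against the mean of the other 4. Calls needed an adjusted p (Benjamini-Hochberg over all genes tested) under 0.05 together with a log2 fold change whose size was 1 or more. The ± after a fold change is its standard error, and the number of sums is 1 for hepatocytes, whose sum was assumed to vary like the others, and 2 for every other population. The median log2 fold change of all genes was -1.41 in the hepatocyte comparison under the scaling used (TMM) and -1.17 under RLE scaling. It was -0.53 in the DESeq2 fit, which differs from that of edgeR in more than its scaling. In the other 4 populations it lay between -0.27 and 0.37 under TMM.

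The 9 genes lie on 7 chromosomes of the mouse assembly GRCm38. *Pck1* (ENSMUSG00000027513.11) spans chr2:173153048-173159273 on the plus strand and *Fbp1* (ENSMUSG00000069805.10) spans chr13:62864753-62888282 on the minus strand, and no stretch of 50 bases of their exons recurs in another gene. *Hk2* (ENSMUSG00000000628.10, chr6:82725025-82774454, minus strand) and *Slc2a2* (ENSMUSG00000027690.13, chr3:28697903-28731359, plus strand) share none either. *Hk1* (ENSMUSG00000037012.18, chr10:62268855-62379908, minus strand) shares 1.22% of its stretches and is overlapped by the antisense gene *Hk1os*. The shares were 20.5% for *Pklr* (ENSMUSG00000041237.12, chr3:89136142-89146784, plus strand), mostly with its neighbour *Hcn3*, 25.8% for *Pkm* (ENSMUSG00000032294.17, chr9:59656368-59679375, plus strand) and 21% for *Ldhb* (ENSMUSG00000030246.11, chr6:142490249-142507957, minus strand), the last with the gene model *Gm5514*. *Slc2a1* (ENSMUSG00000028645.11, chr4:119108711-119137983, plus strand) shares 1.54% with *Gm12868*. Reads from such stretches could have been counted for either gene or for none, and the levels of *Pklr*, *Pkm* and *Ldhb* are uncertain to that extent.

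The promoters of the genes with the largest differences between hepatocytes and the other cells are printed from 250 bases before to 50 bases after the start (RefSeq, GRCm38.p6), since these genes moved together or against each other. They are *Pck1* (chr2:173152823-173153122, plus strand), the second of the *Pklr* starts (chr3:89136373-89136672, plus strand), *Fbp1* (chr13:62888233-62888532, minus strand) and, as the gene that replaced *Pklr* outside hepatocytes, *Pkm* (chr9:59656326-59656625, plus strand). Capitals mark matches to the motifs searched on both strands.
Pck1: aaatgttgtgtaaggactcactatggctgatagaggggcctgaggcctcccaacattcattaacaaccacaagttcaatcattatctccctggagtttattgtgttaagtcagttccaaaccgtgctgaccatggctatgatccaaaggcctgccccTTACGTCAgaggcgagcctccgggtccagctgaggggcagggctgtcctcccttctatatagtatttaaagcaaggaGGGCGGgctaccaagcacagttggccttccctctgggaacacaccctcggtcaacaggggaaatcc
Pklr: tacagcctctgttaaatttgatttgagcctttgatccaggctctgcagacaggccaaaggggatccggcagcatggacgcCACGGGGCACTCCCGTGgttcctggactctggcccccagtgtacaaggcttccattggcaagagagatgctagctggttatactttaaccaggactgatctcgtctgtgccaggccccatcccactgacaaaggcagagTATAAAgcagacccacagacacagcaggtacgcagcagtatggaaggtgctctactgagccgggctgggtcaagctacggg
Fbp1: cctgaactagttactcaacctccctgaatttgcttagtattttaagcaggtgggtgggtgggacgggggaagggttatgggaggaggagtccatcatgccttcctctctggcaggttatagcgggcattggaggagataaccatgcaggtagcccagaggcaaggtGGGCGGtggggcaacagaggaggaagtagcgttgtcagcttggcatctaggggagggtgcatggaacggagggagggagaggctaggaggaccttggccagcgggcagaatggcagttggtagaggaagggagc
Pkm: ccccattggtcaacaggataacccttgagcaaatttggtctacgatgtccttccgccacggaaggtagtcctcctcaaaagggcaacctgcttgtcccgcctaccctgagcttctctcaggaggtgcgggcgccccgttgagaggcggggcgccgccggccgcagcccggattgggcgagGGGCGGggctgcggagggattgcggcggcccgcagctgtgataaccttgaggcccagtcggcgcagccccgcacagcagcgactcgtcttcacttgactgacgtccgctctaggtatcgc
The motifs were TTACGTCA, a cAMP element of the kind described for *Pck1*, CACGGGNNNNNCCCGTG, a carbohydrate element of the kind described for *Pklr*, the TATA box TATAAA and the GC box GGGCGG. TTACGTCA was found in the *Pck1* promoter at -93 to -86 and in 0.499% of the 32851 mouse promoters of this length. The spaced palindrome CACGGGNNNNNCCCGTG was found in 1 promoter of them all, that of *Pklr*, as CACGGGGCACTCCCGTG at -170 to -154. GGGCGG was found in 35.7% of all promoters and, among the printed ones, in those of *Pck1*, *Fbp1* and *Pkm*. TATAAA was found in 13.6% and, among the printed ones, in that of *Pklr*. The promoters also differed in CpG dinucleotides, with 6, 8 and 6 in those of *Pck1*, *Pklr* and *Fbp1*, 2 in that of *Slc2a2*, and 17 to 27 in those of *Ldhb*, *Slc2a1*, *Hk2* and *Pkm*, against a median of 7 over all promoters. *Hk1* had 1 and 20 at its 2 annotated starts, and the other start of *Pklr* had 3. The cAMP and carbohydrate motifs were picked as kinds described for *Pck1* and *Pklr*, so their presence in these promoters was set by that choice. A match is a description of the letters only.

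Hepatocytes were set apart by *Pck1*, *Fbp1*, *Pklr* and *Slc2a2* at high levels and by *Pkm*, *Hk1* and *Ldhb* at levels near the lowest of any population. Of the 9 genes, 4 were called higher and 3 lower in hepatocytes, where 7.86% and 4.66% of all genes tested were called higher and lower. *Pck1*, the rate-limiting enzyme of gluconeogenesis, stood at 1350.1 CPM in hepatocytes and had a count in 75.1% of the cells. In the other sums it ranged from 0.271 to 33.5 CPM, so no sum came near the hepatocyte level. The difference was 8.93 ± 1.06 on the log2 scale (edgeR, adjusted p = 0.00103). The female cholangiocytes were the next highest, and 99.5% of their *Pck1* counts came from 1 cell. Among hepatocytes the level varied widely, with quartiles of 2.53 and 1744 CPM around a median of 397 CPM, and 4 plates gave 1069 to 3790.2 CPM.

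*Fbp1*, which removes a phosphate from fructose 1,6-bisphosphate, reached 1856 CPM in hepatocytes and had a count in 95.5% of the cells. The other sums held 2.24 to 32.8 CPM. Its log2 fold change of 8.65 ± 0.29 had the smallest standard error of the 9 genes (edgeR, adjusted p = 4.4e-06). *Pklr* stood at 265 CPM in hepatocytes, at 10.5 and 4.49 CPM in cholangiocytes, and at 0.317 CPM or less in the other sums. In the female cholangiocytes 78.6% of its counts came from 1 cell. The hepatocyte difference was 10.34 ± 0.63 on the log2 scale (edgeR, adjusted p = 4.1e-05), the largest of the 9 genes. The levels of these genes outside hepatocytes can be read beside the hepatocyte transcripts above: over the 40 sums *Pck1* reached at most 8.55% and *Fbp1* at most 4.45% of the hepatocyte level, both in lymphatic endothelial cells. Their part in these low levels was not tested.

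*Slc2a2* behaved differently, with 84.8 CPM in hepatocytes but 496 and 226 CPM in cholangiocytes. In the endothelial, immune and mesenchymal sums it did not exceed 0.860 CPM. It was therefore called higher in hepatocytes (6.0 ± 0.68 on the log2 scale, edgeR, adjusted p = 0.000813) and higher in cholangiocytes (7.54 ± 0.80, adjusted p = 0.00124), each against the mean of the other 4 populations. In single hepatocytes the transcript was often missing, since 25.9% of them had a count, and plates ranged from 0 to 169 CPM.

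The genes called lower in hepatocytes were *Pkm*, *Hk1* and *Ldhb*. *Pkm* stood at 15.8 CPM in hepatocytes, with 37.3% of these counts from 1 cell, and at 131 to 782 CPM elsewhere, a difference of -4.0 ± 0.61 (edgeR, adjusted p = 0.00342). *Hk1* gave 26 counts over all 201 hepatocytes, or 0.725 CPM, against 25.8 to 225 CPM in the other sums (-6.15 ± 1.08, adjusted p = 0.00691). *Ldhb* stood at 1.20 CPM against 9.17 to 277 CPM (-5.67 ± 1.08, adjusted p = 0.0106). The hepatocyte value of each of the 3 lay below the other sums, and the share of all genes for which this holds was not counted. *Slc2a1*, at 13.2 CPM with 49.0% of the counts from 1 cell, was not called (-1.51 ± 0.57, adjusted p = 0.136), and its value lay close to the median of all genes. *Hk2* gave 7 counts, or 0.195 CPM, and was not called either (-3.48 ± 1.31, adjusted p = 0.131), although DESeq2 called it lower. All 7 calls held when each sum of the other populations was left out in turn. The lone hepatocyte sum, which carries these calls, could not be left out here or in the later comparisons between populations.

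**Figure D1:**
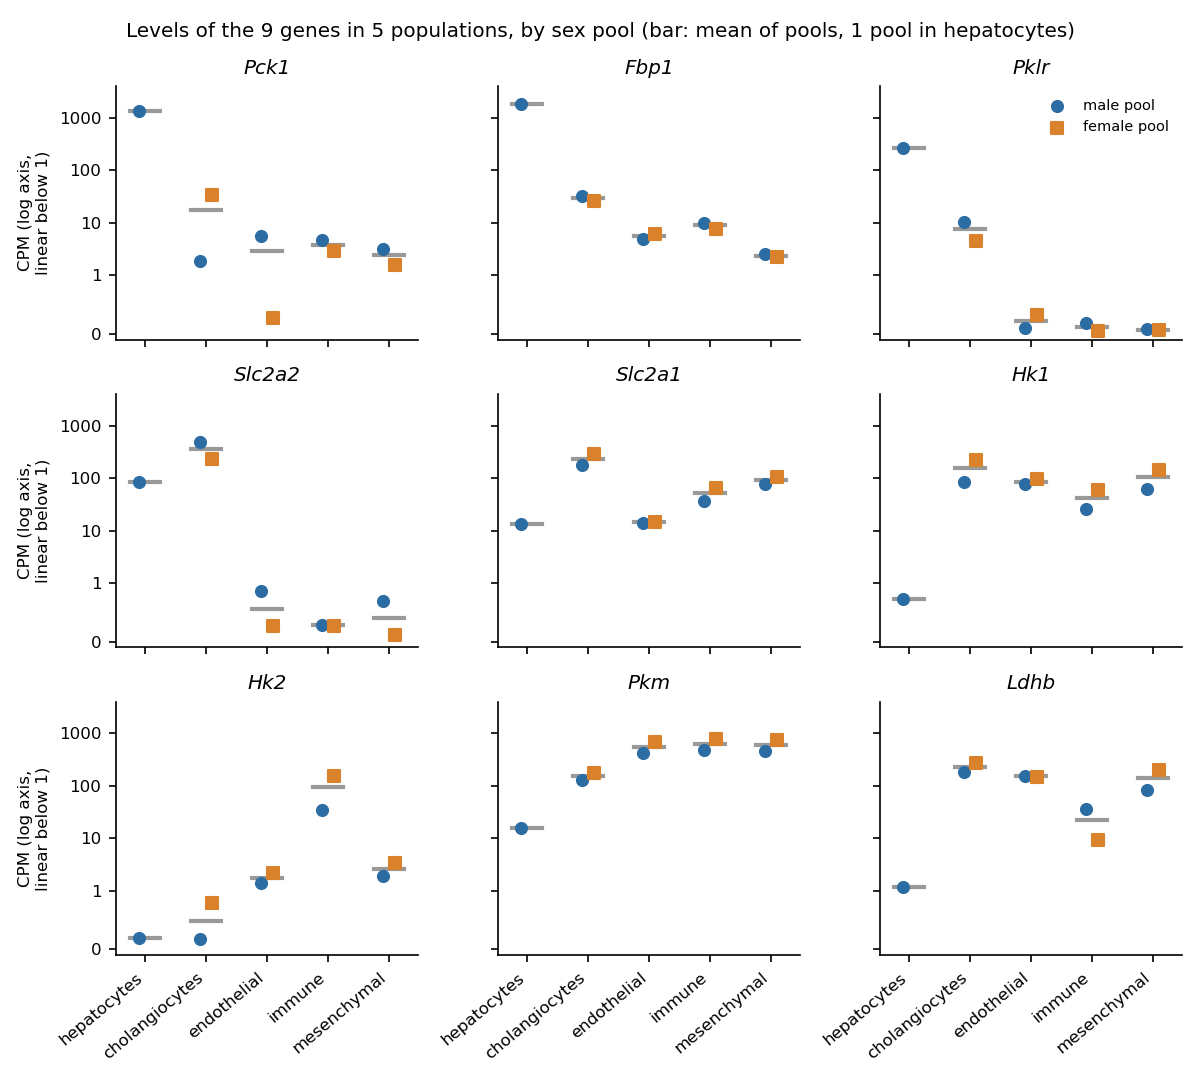
CPM of each of the 9 genes, on a log axis that is linear below 1, in the 5 populations, with points for the male and female pools and a bar at the mean of the pools (1 pool in hepatocytes). Pck1, Fbp1 and Pklr stand above 200 CPM in hepatocytes alone, while Pkm, Hk1 and Ldhb are lowest there.

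Within hepatocytes, the gluconeogenic genes *Pck1* and *Fbp1* differed between zones by more than *Pklr*, *Slc2a2* and *Pkm* did. The periportal-like cluster #p4 was led by periportal markers, with *Hal* at 1899 CPM against 14.1 in #p5, *Cyp2f2* at 1164 against 24.9, *Sds* at 570.2 against 7.10 and *Cps1* at 1042 against 447. The pericentral-like cluster #p5 was led by pericentral markers, with *Glul* at 2365 CPM against 41.4 in #p4, *Cyp2e1* at 2769.8 against 201, *Oat* at 4259 against 121 and *Cyp1a2* at 273 against 30.3. Both hold male cells of 1 pool, 59 in #p4 and 57 in #p5, so no test was possible. The intervals given are exact binomial intervals at 95% on the split of counts between the clusters, turned into ratios. They cover counting error only.

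*Pck1* was at 2121 CPM in #p4 and 265 CPM in #p5, an 8.0-fold difference (3.0 on the log2 scale, interval 2.94 to 3.06). The cells themselves were spread apart, with a median of 1744 CPM (quartiles 1274 and 2794) in #p4 and 8.83 CPM (quartiles 0 and 457) in #p5. *Fbp1* was at 2498 and 1179 CPM, a 2.12-fold difference (1.08, interval 1.05 to 1.11), and its middle cells also lay apart, with quartiles of 2141 and 3068 CPM against 636 and 1760 CPM. *Alb*, a hepatocyte marker outside the pathway, also differed, at 8237 and 4267 CPM, and the median depth was 204679 and 149112 counts per cell. On the plate that gave 56 cells of each cluster, the log2 ratio of *Pck1* was 2.99 and that of *Fbp1* was 1.13.

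The glycolytic *Pklr* differed less, at 359 and 253 CPM (0.50 on the log2 scale, interval 0.43 to 0.58), and it was higher in the periportal-like cluster. *Slc2a2* was at 79.9 and 69.0 CPM (0.21 on the log2 scale). *Slc2a1* was at 24 and 10.2 CPM, but 73.4% and 96.9% of these counts came from 1 cell each, and on the single plate the ratio turned over to -0.59 on the log2 scale. *Pkm* was at 6.68 and 8.98 CPM (-0.43), and *Ldhb* at 1.97 and 0.209 CPM on 26 and 2 counts. *Hk1* and *Hk2* gave 4 counts or fewer in either cluster. Of the 6 members with at least 100 counts in both clusters together, 3 were at least 2-fold higher in #p4 and 0 lower, and 1 of the 3 is *Slc2a1* with its single cells. Over all 9354 genes with that many counts, 21.3% were at least 2-fold higher and 16.8% lower.

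The remaining hepatocyte clusters were less even. In #p3, with 23 cells, pericentral markers were high (*Cyp2e1* at 4561 CPM, *Cyp1a2* at 1528 CPM and *Glul* at 997 CPM), *Pck1* was at 343 CPM and *Fbp1* at 989 CPM, close to #p5. *Slc2a2* was highest there of the 4 clusters, at 190 CPM, and *Pklr* was at 80.9 CPM. Cluster #p1, with 62 cells, held markers of both zones, and *Pck1* was at 1788 CPM over all its cells but at 167 CPM over its 24 cells on the single plate. *Pklr* in #p1 was at 217 CPM over all its cells and at 14.02 CPM on that plate, where #p3 held 93.7 CPM, so which of the 2 clusters was lowest depended on the plates taken.

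Of the wider pathway list, 41 genes had enough counts in #p4 and #p5, of which 6 were at least 2-fold higher in #p4 and 5 lower. These are 14.6 and 12.2% of the 41, below the 21.3% and 16.8% of all genes, and the values of these genes are given as a description. *G6pc*, which releases free glucose in the last step of gluconeogenesis, was higher (189 against 92.9 CPM), as were the fructose enzyme *Khk* (1055 against 478 CPM), *Slc16a1*, *Pfkm*, *Pygb* and *Pgm2*. Among the 5 lower were the regulators *Pfkfb1* (5.54 against 92.4 CPM), *Pfkfb2* and *Pdk4* (0.455 against 42.7 CPM) and the glycogen gene *Gyg*. *Ldha* stood at 1747 and 1778 CPM and *Pcx* at 806 and 1084 CPM, both within 2-fold.

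**Figure D2:**
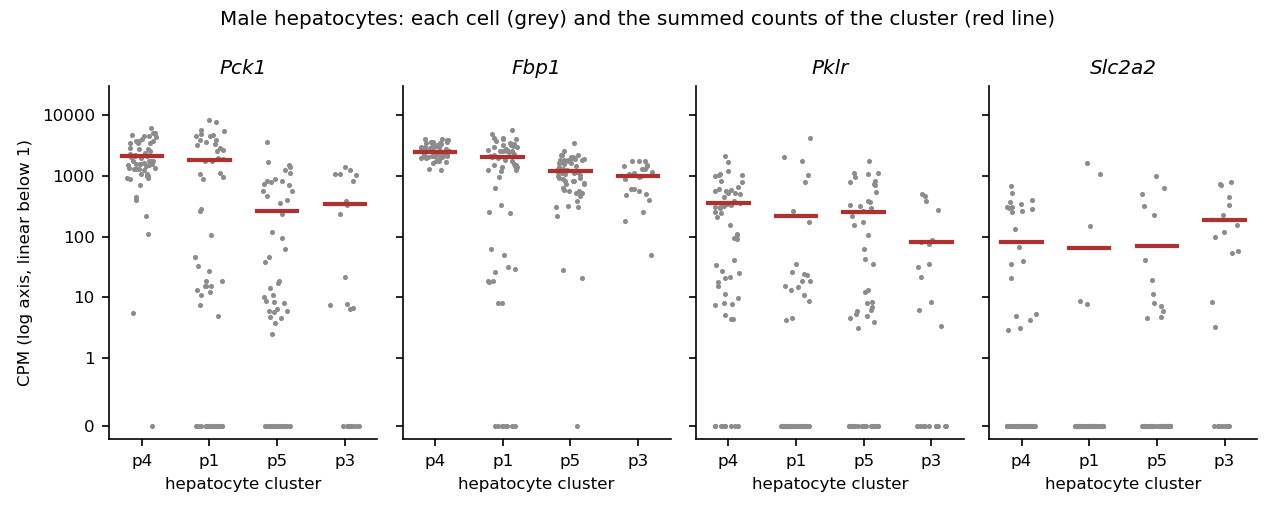
CPM of Pck1, Fbp1, Pklr and Slc2a2 in each male hepatocyte (grey points) of clusters p4, p1, p5 and p3, on a log axis that is linear below 1, with a red line at the CPM of the summed counts of the cluster. For Pck1 the middle cells of #p4 lie far above those of #p5, for Fbp1 they lie about 2-fold higher, and for Pklr the ranges of the clusters overlap widely.

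Cholangiocytes carried both glucose transporters. *Slc2a2* was at 496 and 226 CPM, the highest level of any annotation, and *Slc2a1* was at 178 and 291 CPM, a level shared with smooth muscle. Both transcripts had a count in 72 of 157 male cells (45.9%) and 27 of 37 female cells (73.0%). Shares were corrected for the length of all annotated exons of a gene. *Slc2a1* made up 37.1 and 67.9% of the pair in cholangiocytes, 20.3% in hepatocytes and at least 96.3% in endothelial, immune and mesenchymal cells. The pools of cholangiocytes thus fell on different sides of 50%.

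Against the mean of the other populations, 5 of the 9 genes were called higher in cholangiocytes and 0 lower, where 6.48% and 2.73% of all genes were called. DESeq2 also called *Hk2* lower (-3.20). Besides *Slc2a2*, the 5 were *Slc2a1* (2.56 ± 0.35 on the log2 scale, edgeR, adjusted p = 0.00346), *Ldhb* (2.70 ± 0.49, adjusted p = 0.0114), *Hk1* (2.38 ± 0.47, adjusted p = 0.0173) and *Pklr* (2.87 ± 0.58, adjusted p = 0.018). *Hk1* was at 84.6 and 225 CPM, and *Ldhb* at 187 and 277 CPM. The mean of the others includes the hepatocytes, in which *Hk1* and *Ldhb* are close to 0. Without the female cholangiocytes, *Hk1* (1.60) and *Ldhb* (2.47) were no longer called, and without the male ones *Pklr* (2.02) was not. With sums per plate *Slc2a1* was not called (1.97). *Pklr* in cholangiocytes was 3.97 and 1.70% of its hepatocyte level, below the 25.5 and 27.2% of the summed hepatocyte markers in the same cells.

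Set directly against hepatocytes, cholangiocytes were lower in *Fbp1* (-6.85 ± 0.50, edgeR, adjusted p = 0.00148), *Pklr* (-5.98 ± 0.99, adjusted p = 0.0147) and *Pck1* (-7.22 ± 1.81, adjusted p = 0.0495). They were higher in *Hk1* (6.82 ± 1.14, adjusted p = 0.015), *Ldhb* (6.70 ± 1.17, adjusted p = 0.0172), *Slc2a1* (3.25 ± 0.69, adjusted p = 0.0307) and *Pkm* (2.38 ± 0.57, adjusted p = 0.0445). These were 4 genes called higher and 3 lower, with 3.63% and 3.3% of all genes called. *Slc2a2* was not called (1.23 ± 1.14, adjusted p = 0.59), and its interval of 2 standard errors, from -1.05 to 3.51, leaves both directions. *Fbp1*, *Ldhb* and *Hk1* were called whichever sum was left out. The *Pck1* call was lost without any 1 of the cholangiocyte (-10.33 and -6.28), immune or mesenchymal sums and with the pool as a block (-6.47). That of *Pkm* was lost without any 1 of the cholangiocyte (2.24 and 2.51), endothelial or mesenchymal sums and with RLE (2.23). The *Slc2a1* call ended without the female cholangiocytes (2.94), any endothelial or mesenchymal sum or with sums per plate (2.12). That of *Pklr* ended without the female cholangiocytes (-5.47).

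The choice of pyruvate kinase split hepatocytes from every other cell. Per kilobase of exon, *Pkm* was 3.72% of *Pkm* and *Pklr* in hepatocytes (exact binomial interval 3.42 to 4.03%, on 566 and 9489 counts). It was 89.0 and 96.1% in cholangiocytes and at least 99.9% in the endothelial, immune and mesenchymal sums. Among the hepatocytes, 60 had counts of *Pklr* alone, 32 of *Pkm* alone, 58 of both and 51 of neither. Over the sums of annotated cells outside hepatocytes, 38 of 40 were above 99% *Pkm*, and the exceptions were the cholangiocytes.

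**Figure D3:**
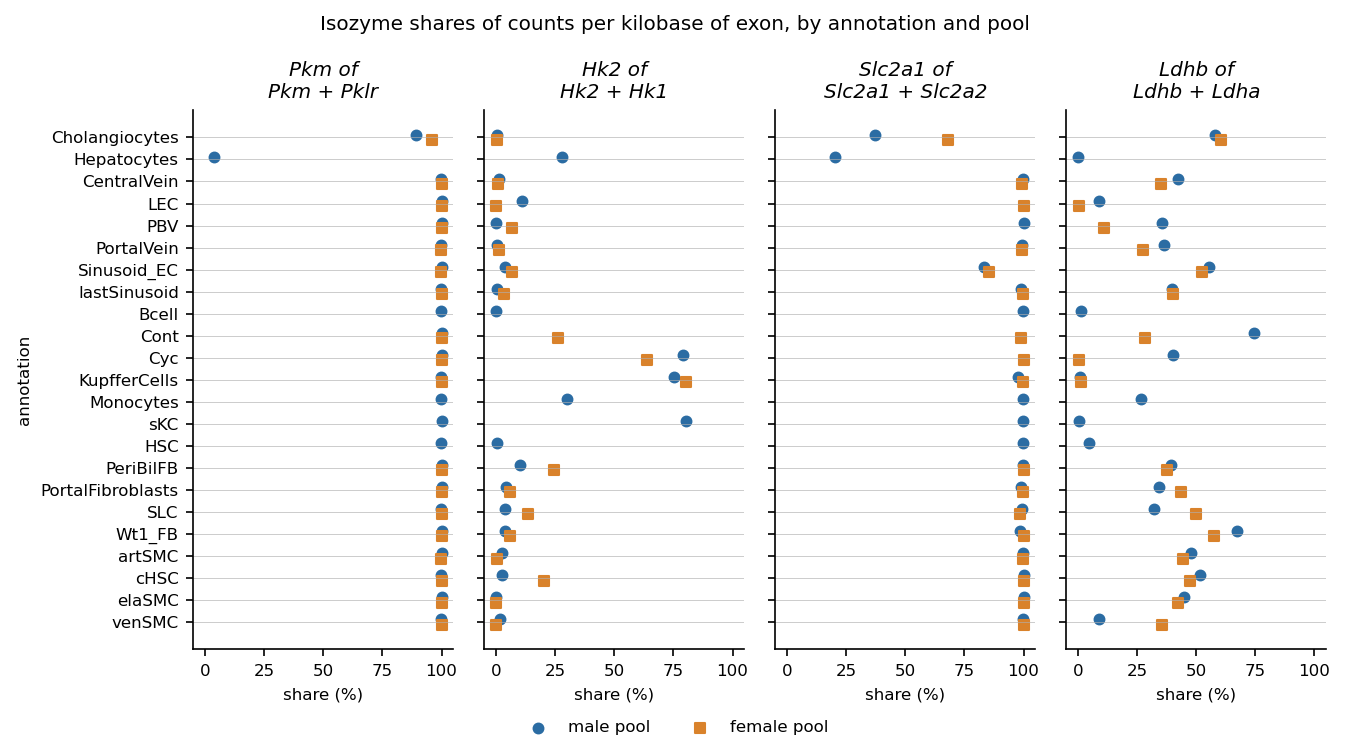
Share of 1 isozyme of each pair in percent, per kilobase of exon, in the annotated cell types, with points for the male and female pools. Only sums with at least 10 counts in the pair are shown. The Pkm share is 3.72% in hepatocytes and at least 89.0% elsewhere, while the Hk2 share exceeds 50% in Kupffer cells and related annotations.

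The hexokinases differed between populations and within the immune class. *Hk2* was mainly a transcript of immune cells, at 34.6 and 153 CPM in immune cells against at most 3.365 CPM in any other sum (6.77 ± 0.78 on the log2 scale, edgeR, adjusted p = 0.00152). It had a count in 23.1 and 85.6% of the immune cells, or 14.6 and 73.1% at equal depth. Male and female plates did not overlap, with 0 to 64.4 CPM on 6 male plates and 99.4 to 163 CPM on 2 female plates. The level differed within the class. The Kupffer cell clusters held 57.3 and 154 CPM, the male cells annotated as monocytes 7.59 CPM, the male cells of cluster #i2, in which the Kupffer cell marker Clec4f was at 925 CPM, 26.3 CPM, and the 58 male B cells of #i5 no count at all, which allows up to 0.201 CPM. By share of cells with a count the order of the male groups was another, with 23.1% in the Kupffer cell clusters and 44.4% in #i2, or 15.8 and 25.4% at equal depth. As a share of *Hk1* and *Hk2* per kilobase, *Hk2* was 65.8 and 78.8% in immune cells, 2.61 and 3.18% in endothelial cells, 4.28 and 3.21% in mesenchymal cells and 0.300 and 0.507% in cholangiocytes. Within the class it was 75.1 and 80.4% in the cells annotated as Kupffer cells, 29.8% in male monocytes and 0% in male B cells, on 0 and 320 counts of the pair (exact binomial upper bound 1.63%). The hepatocyte share of 27.8% rests on 7 and 26 counts and has an interval from 12.4 to 47.7%. Of the 26 *Hk1* counts, 20 were in cluster #p3, and 90% of those came from 1 cell, which the interval does not cover.

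*Hk1* and *Hk2* were also set beside their relatives *Hk3* and *Hkdc1*, per kilobase. In immune cells *Hk3*, a hexokinase of myeloid cells, made up 82.7 and 81.3% of the sum of the 4 genes, with *Hk2* at 11.3 and 14.7% and *Hk1* at 5.90 and 3.96%. *Hk1* led in endothelial cells, at 86.7 and 86.3%, and in mesenchymal cells, at 94.6 and 96.1%. In cholangiocytes *Hkdc1*, a less studied member of the family, made up 73.5 and 44.9% and *Hk1* 26.3 and 52.5%, so the larger of the pair was not the same in both pools. The sum of the 4 genes was 37.7 and 50.2 CPM per kilobase in cholangiocytes, 51.1 and 174 in immune cells, and between 7.77 and 17.7 in endothelial and mesenchymal cells. In hepatocytes it was 0.246 CPM per kilobase, which rests on too few counts for shares to be read.

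Of these relatives, *Hk3* was called higher in immune cells (8.16 ± 1.10, edgeR, adjusted p = 0.00259), at 156 and 521 CPM. *Hkdc1* was called higher in cholangiocytes (adjusted p = 0.000981), at 142 and 116 CPM. It gave 0 counts in the male hepatocytes, where 3 counts would be 0.0837 CPM, so its fold change is not given.

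**Figure D4:**
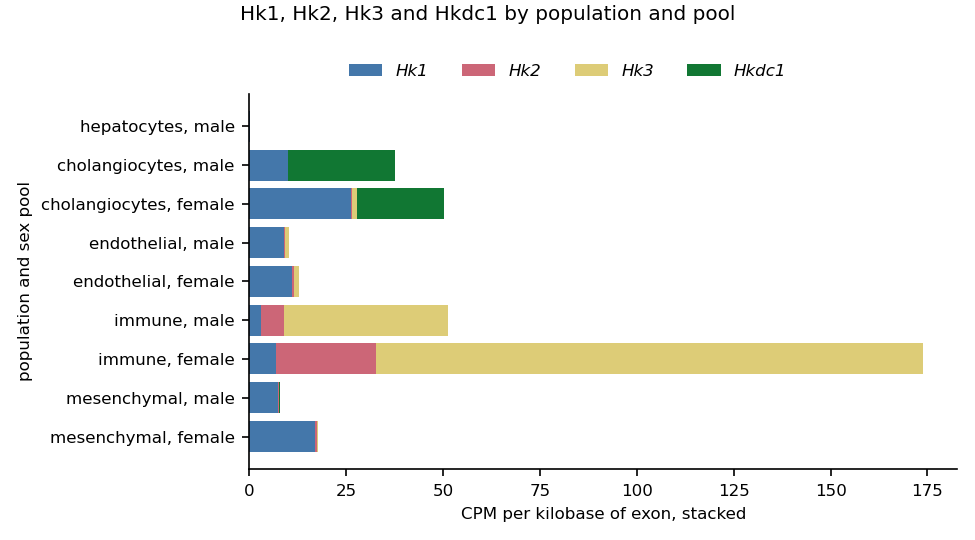
Levels of Hk1, Hk2, Hk3 and Hkdc1 in CPM per kilobase of exon, stacked, for each population and pool. Hk3 fills most of the immune bars, Hk1 most of the endothelial and mesenchymal bars, and Hkdc1 with Hk1 most of the cholangiocyte bars, while the hepatocyte bar, at 0.246 CPM per kilobase, is too short to be seen.

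In immune cells 2 of the 9 genes were called higher and 3 lower, where 7.99% and 4.5% of all genes were called. Besides *Hk2*, *Pkm* was higher, at 488 and 782 CPM (1.79 ± 0.31, edgeR, adjusted p = 0.00741). *Slc2a2* (-5.21 ± 1.02, adjusted p = 0.0125), *Pklr* (-4.58 ± 0.87, adjusted p = 0.0109) and *Fbp1* (-1.87 ± 0.34, adjusted p = 0.00907) were lower, and the mean they were set against includes hepatocytes and cholangiocytes. With hepatocytes and cholangiocytes summed as 1 class, *Hk2* and *Slc2a2* stayed called, *Pkm* (0.99), *Pklr* (-3.02) and *Fbp1* (-0.89) did not, and *Ldhb* was called lower (-2.69). The male pool of that class holds 201 hepatocytes and 157 cholangiocytes and the female pool 2 and 37, so its sums differ in cell type. *Hk2* was called whichever sum was left out, as was *Fbp1*, although *Fbp1* was not called with sums per plate (-1.86). Without the female immune cells *Pkm* (1.34), *Slc2a2* (-5.25) and *Pklr* (-3.95) were not called, and without the male ones *Slc2a2* (-5.15) was not. A summed level of endothelial markers of 459 and 936 CPM was counted in the immune cells, against 6280.0 and 5750.2 CPM in endothelial cells.

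*Ldhb* in the immune class differed between cell types. It was at 36.2 and 9.17 CPM in immune cells as a whole, not called (-1.26 ± 0.58, edgeR, adjusted p = 0.212, turning to 0.55 with sums per plate), and at 1.5 and 4.72 CPM in the cells annotated as Kupffer cells. The 6 male and 20 female cells that the authors annotated as Cont, for Kupffer cells with endothelial transcripts, held 363 and 147 CPM, with 84.2 and 46.7% of the counts from 1 cell. Male monocytes held 94.2 CPM and male B cells 1.70 CPM. Cluster #i2 gave 1666 of the male *Ldhb* counts and the male Cont cells 425. The share of *Ldhb* in *Ldhb* and *Ldha* per kilobase of exon was 15.2 and 2.68% in immune cells and 0.146% in hepatocytes. It was 58.1 and 60.4% in cholangiocytes, 49.1 and 38.2% in endothelial cells and 38.7 and 45.6% in mesenchymal cells. The lengths were those of all annotated exons, 1570 bases for *Ldhb* and 3310 for *Ldha*. Before division by length, cholangiocytes held means of 232 CPM of *Ldhb* and 333 CPM of *Ldha*, so which subunit led there depended on the correction. *Ldha* itself was highest in hepatocytes, at 1726 CPM (2.79 ± 0.34, adjusted p = 0.00123).

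In endothelial cells 2 of the 9 genes were called higher and 4 lower, where 7.07% and 3.24% of all genes were called. *Ldhb* was at 158 and 147 CPM (2.12 ± 0.49, edgeR, adjusted p = 0.0289) and *Pkm* at 418 and 673 CPM (1.45 ± 0.31, adjusted p = 0.0218). *Slc2a1* was at 13.7 and 14.9 CPM, close to the 13.2 CPM of hepatocytes and below every sum of the other 3 populations (-2.30 ± 0.45, adjusted p = 0.0146). *Fbp1* (-2.75 ± 0.36, adjusted p = 0.0035), *Pklr* (-3.47 ± 0.80, adjusted p = 0.0276) and *Slc2a2* (-3.99 ± 0.94, adjusted p = 0.0302) were the others. *Hk1*, at 76.1 and 94.8 CPM, was not called (1.51 ± 0.48, adjusted p = 0.0877), but it was called with no filter on low counts (1.52) and with sums per plate (2.66). With hepatocytes and cholangiocytes summed as 1 class, as the labels have them, *Slc2a1* was the only member called (-2.83) and *Hk1* turned to -0.026. The pools of that class differ in their mix of these cells. DESeq2 also called *Pck1* lower (-3.31). Only *Fbp1* was called whichever sum was left out. Without the female and without the male endothelial cells, none of the others was called, at 2.15 and 2.09 for *Ldhb*, 1.05 and 1.77 for *Pkm*, -2.38 and -2.23 for *Slc2a1*, -4.49 and -2.86 for *Pklr* and -3.39 and -5.07 for *Slc2a2*. Without the male cholangiocytes *Ldhb* (2.07) and *Slc2a2* (-3.80) were not called either.

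Along the vessels, *Slc2a1* varied between clusters and, in 1 vein cluster, between pools. The vein clusters #e1 and #e2 held 34.5 and 27.1 CPM and 34.8 and 19.8 CPM, and the sinusoidal clusters #e3, #e5, #e6 and #e8 held 0.128 to 14 CPM. The other central vein cluster, #e7, held 20.5 CPM in 71 male cells, with 98.3% of the counts from 1 cell, and 1 count in 79 female cells (0.061 CPM). Its female sum was thus below every sinusoidal sum, and vein and sinusoidal sums overlapped. Among annotations the sinusoidal endothelial cells were the lowest by the mean of the pools, at 4.22 and 2.98 CPM, and 86.2% of the male counts came from 1 cell. Single pools of smaller groups were lower. The difference between the sinusoidal clusters and #e1 and #e2 was -3.11 ± 1.22 on the log2 scale, -4.33 in the male and -2.74 in the female pool, and did not pass the test (edgeR, adjusted p = 0.313). With #e7 added to the veins, an alternative chosen after seeing the data, it was -2.68 (adjusted p = 0.267). With edgeR 0 of 8 members tested were called between sinusoidal and vein clusters, where 0.224% and 0.961% of all genes were called higher and lower, 1 had an unadjusted p under 0.05, and DESeq2 called 0. Between the portal vein cluster #e2 and the central vein cluster #e1, 0 of 8 were called with edgeR, 0 had an unadjusted p under 0.05 and DESeq2 called 0, where 0.0273% and 0.0491% of all genes were called. *Fbp1* had the largest value there, 3.89 ± 2.12 (adjusted p = 0.906), and 81.3 and 98.0% of its counts in cells annotated as portal vein came from 1 cell. *Ldhb* (0.60 ± 0.41), *Pkm* (-0.36 ± 0.29) and *Hk1* (0.20 ± 0.49) showed small values between sinusoidal and vein clusters.

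In mesenchymal cells 3 of the 9 genes were called higher and 3 lower, where 9.92% and 1.69% of all genes were called. *Pkm* was at 468 and 742 CPM (1.78 ± 0.31, edgeR, adjusted p = 0.00751), *Hk1* at 62.7 and 145 CPM (1.98 ± 0.48, adjusted p = 0.0299) and *Ldhb* at 81.9 and 201 CPM (2.10 ± 0.49, adjusted p = 0.0264). *Fbp1* (-4.12 ± 0.39, adjusted p = 0.000602), *Pklr* (-5.17 ± 0.89, adjusted p = 0.00711) and *Slc2a2* (-4.33 ± 0.96, adjusted p = 0.0208) were lower. *Slc2a1*, at 78.6 and 104 CPM, was not called (1.19 ± 0.36, adjusted p = 0.0717). All 6 calls ended when hepatocytes and cholangiocytes were summed as 1 class, as the labels have them, whose pools differ in their mix of these cells. DESeq2 also called *Pck1* lower (-3.41). *Fbp1* was called whichever sum was left out. Without the female mesenchymal cells, *Pkm* (1.52), *Hk1* (1.37), *Ldhb* (1.44), *Pklr* (-4.92) and *Slc2a2* (-3.54) were not called. *Ldhb* was also lost without the male cholangiocytes (2.05) or the female endothelial cells (2.10) and with sums per plate (1.42), and *Hk1* without the female (2.02) or male (1.93) endothelial cells and with RLE (1.82).

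By the mean of the pools, arterial smooth muscle cells (artSMC) ranked first among the annotated cells for *Hk1* and *Pkm*, and the smooth muscle cells annotated elaSMC ranked first for *Slc2a1* and next to artSMC for the others. The artSMC (127 and 110 cells) held 118 and 242 CPM of *Hk1*, 778 and 1092 CPM of *Pkm* and 172 and 149 CPM of *Slc2a1*. The cells annotated elaSMC (9 and 25 cells) held 200.4 and 289 CPM of *Slc2a1*, a range that overlaps with the 178 and 291 CPM of cholangiocytes, and 64.7 and 285 CPM of *Hk1*, of which the male value was below that of either cholangiocyte pool. The venous smooth muscle cells (venSMC, 89 and 22 cells) held 108 to 136 CPM of *Slc2a1*, 46.9 and 151 CPM of *Hk1* and 561 and 718 CPM of *Pkm*. Stellate cells (HSC, 69 male cells) held 60.9 CPM of *Slc2a1* and 42.1 CPM of *Hk1*. The capsular stellate cells (cHSC, 91 and 22 cells) held 73.4 to 84.5 CPM of *Slc2a1* and 80.0 to 85.8 CPM of *Hk1*. For the tests, mural cells were #m2, #m5, #m6 and #m7, stellate cells #m3 with HSC and cHSC, and fibroblasts the other clusters. The mural clusters include the second layer cells (SLC), which the paper scores as closer to fibroblasts. The SLC held 30.6 to 64.4 CPM of *Slc2a1*. Mural cells were above fibroblasts in *Slc2a1* by 1.19 ± 0.36 on the log2 scale, 1.25 in the male and 1.14 in the female pool. The difference did not pass the test (edgeR, adjusted p = 0.37). The same held for *Hk1* (1.08 ± 0.52, adjusted p = 0.693) and *Pkm* (0.67 ± 0.30, adjusted p = 0.642). With edgeR 0 of 8 members tested were called between mural cells and fibroblasts (1 at an unadjusted p under 0.05, 0 by DESeq2), where 0.00507% and 0.0152% of all genes were called higher and lower. Between stellate cells and the mean of mural cells and fibroblasts, edgeR also called 0 of 8 (0 at an unadjusted p under 0.05, 0 by DESeq2), where 0.0557% and 0.0253% of all genes were called. With the pool as a block, since the mesenchymal clusters come from the same pools, 28 and 35 genes were called higher and lower in mural cells in place of 1 and 3, and 30 and 33 in stellate cells in place of 11 and 5, with no member among them.

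**Figure D5:**
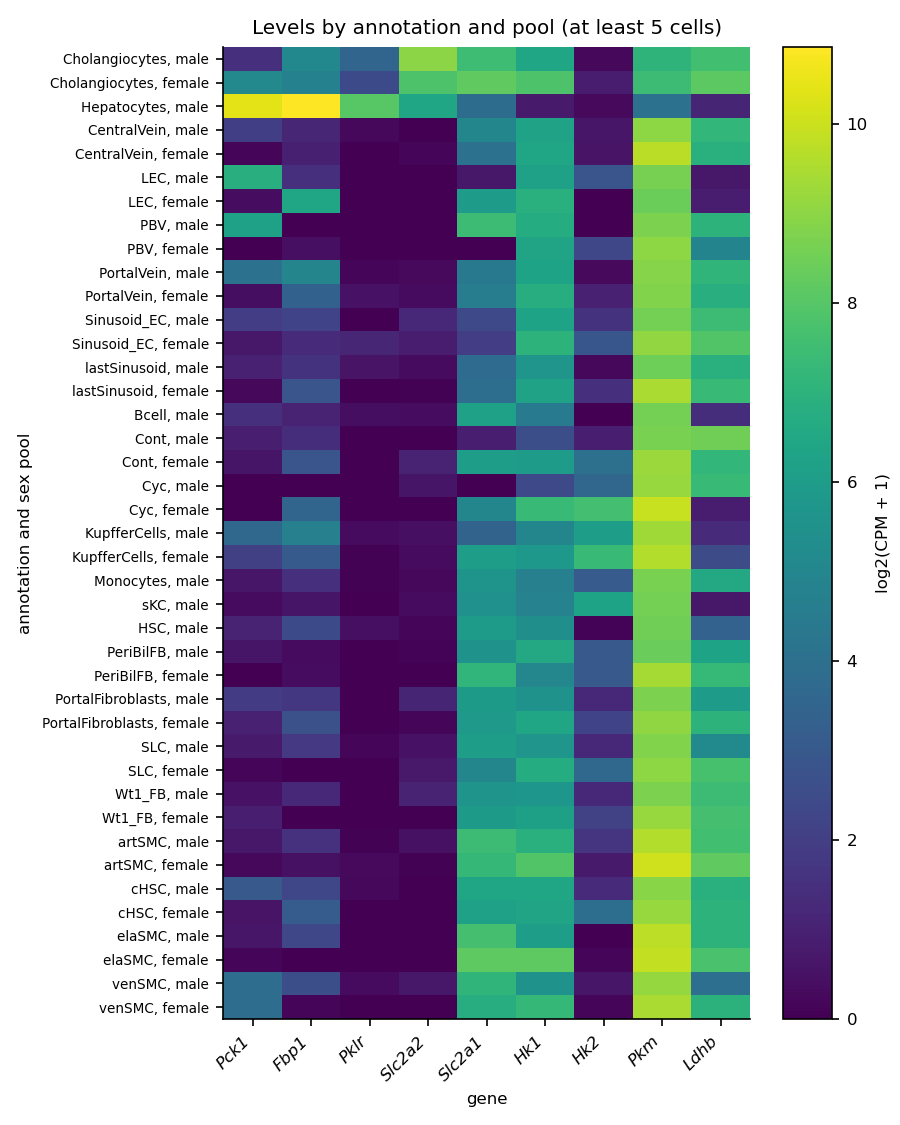
Heat map of log2(CPM + 1) of the 9 genes (columns) in each annotated cell type and pool of at least 5 cells (rows), with brighter colours for higher levels. Hepatocytes stand alone for Pck1, Fbp1 and Pklr, and cholangiocytes lead for Slc2a2. Kupffer cells, the cells annotated sKC and 1 pool of those annotated Cyc are highest for Hk2. The artSMC and elaSMC lie among the highest for Slc2a1, Hk1 and Pkm.

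Ordered over all annotations, *Ldhb* varied widely. It was highest in the Cont cells, where 1 cell gave most of the male counts, followed by artSMC (192 and 298 CPM), cholangiocytes and sinusoidal endothelial cells (173 and 241 CPM), whose pools overlap in level. It was lowest in Kupffer cells, B cells, hepatocytes, lymphatic endothelial cells (0.624 and 0.837 CPM on 9 and 13 cells and no more than 3 counts a pool) and the 17 male cells annotated sKC (0.639 CPM). The venSMC were split between pools, with 14.4 and 124 CPM, and 64.5% of the male counts came from 1 cell. *Pkm* was lowest in hepatocytes, next lowest in cholangiocytes and at 327 CPM or more in every other sum of at least 5 cells. Above these 2 populations the ranges of the pools overlapped widely between neighbours in the order.

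The pools of 18 annotations could be set side by side. The female pool was higher for *Pkm* in 16 of them, for *Hk1* in 15, and for *Hk2* and *Ldhb* in 13 each, with median log2 differences of 0.38, 0.75, 0.89 and 0.48. *Slc2a1* was higher in the female pool in 10, *Fbp1* in 8, *Slc2a2* in 4, and *Pck1* and *Pklr* in 3 each. Over all genes compared the median was 0.025. The female cells also showed more genes at equal depth, and the part of plate, mice and library quality in these differences was not tested.

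Of the wider list of 63 pathway genes, 62 were tested between populations, and hepatocytes held more calls than any other population, with 27 higher and 7 lower (43.5 and 11.3% of the 62, against 7.86% and 4.66% of all genes). Their median log2 fold change was 1.0, against -1.41 for all genes. By group, 12 of 25 genes of glycolysis were called higher, as were 6 of 8 of pyruvate entry and 5 of 11 of glycogen. Of the 12 transporters 1 was higher and 1 lower, and of the 5 tested genes of gluconeogenesis 2 were higher and 2 lower. The other gluconeogenic enzymes moved with *Pck1* and *Fbp1* in part. *Pcx*, which carboxylates pyruvate, was at 727.5 CPM (8.05 ± 0.44, edgeR, adjusted p = 2.59e-05) and *G6pc* at 148 CPM (8.52 ± 0.70, adjusted p = 0.000162). *Pck2*, the mitochondrial relative of *Pck1*, was lower, at 8.81 CPM against 42.4 to 222 CPM elsewhere (-2.60 ± 0.57, adjusted p = 0.0199), and so was *G6pc3*, the widely expressed relative of *G6pc* (-4.92 ± 1.22, adjusted p = 0.032). Of the glycogen genes, the liver isozymes *Gys2* (239 CPM, 10.34 ± 1.36, adjusted p = 0.00172) and *Pygl* (1256 CPM, 5.58 ± 0.58, adjusted p = 0.000527) were higher and *Pygb*, the brain isozyme, lower (-4.82 ± 0.82, adjusted p = 0.00623). *Gckr* was also higher, at 272 CPM (9.29 ± 0.72, adjusted p = 0.00012). A reversal between isozymes was likewise seen in the bifunctional regulators of glycolysis, with *Pfkfb1* higher (6.0 ± 0.77) and *Pfkfb3* (-5.38 ± 0.99) and *Pfkfb4* (-5.62 ± 1.07) lower. Among the others called higher by at least 3 on the log2 scale were *Slc2a5*, *Ldhd*, *Gbe1*, *Aldoc*, *Pgm1*, *Khk*, *Ugp2*, *Pdk1*, *Mpc1* and *Pgk1*, and lower *Slc2a8*.

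Cholangiocytes had 9 of the 62 genes called higher and 5 lower (14.5 and 8.06%, against 6.48% and 2.73% of all genes). With *Hkdc1* these included *Aldoc*, at 226 and 246 CPM (6.12 ± 0.74, edgeR, adjusted p = 0.00203), *Gckr*, at 60.7 and 55.0 CPM (5.41 ± 0.73, adjusted p = 0.00325), *G6pc*, at 14.8 and 42.3 CPM (4.40 ± 0.69, adjusted p = 0.00605), and *Pfkfb4* (3.4 ± 0.49). *Gckr* stood at 22.3 and 20.2% and *G6pc* at 9.96 and 28.5% of the hepatocyte level, beside the 25.5 and 27.2% of the summed hepatocyte markers in the same cells, whose part in these calls was not tested. *Pfkfb1*, *Slc2a6*, *Slc16a3* and *Slc2a3* were lower by at least 3. Immune cells had 4 higher and 9 lower (6.45 and 14.5%, against 7.99% and 4.5% of all genes), so that the share called higher was near that of all genes. Besides *Hk3* these were the lysosomal transporter *Slc2a6*, at 67.6 and 85.5 CPM (7.57 ± 0.92, adjusted p = 0.00183), *Pfkfb4* (3.72 ± 0.49) and the high-affinity transporter *Slc2a3* (2.73 ± 0.69, adjusted p = 0.0354), with *G6pc*, *Slc2a10*, *Gckr* and *Ldhd* lower by at least 3.

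Endothelial cells had 2 higher, of which the inositol transporter *Slc2a13* passed 3 (6.38 ± 1.41, edgeR, adjusted p = 0.0295), and 13 lower (3.23 and 20.97%, against 7.07% and 3.24% of all genes), among them *Pygl* (-6.12 ± 0.91), *Slc2a4*, *Gckr*, *Aldoc*, *Pfkfb4* and *G6pc*. Mesenchymal cells had 11 higher and 6 lower (17.7 and 9.68%, against 9.92% and 1.69% of all genes). Among these, the insulin-responsive transporter *Slc2a4* was at 59.5 and 222 CPM (9.28 ± 1.41, adjusted p = 0.00413), the muscle glycogen phosphorylase *Pygm* at 186 and 284 CPM (6.67 ± 0.86, adjusted p = 0.0021), and *Pgam2* (7.23 ± 1.36), *Eno2* (6.32 ± 1.32), *Slc2a10* (6.21 ± 0.87) and the lactate exporter *Slc16a3* (5.02 ± 0.82) were also higher, with *G6pc* and *Gckr* lower by at least 3. *Pck2* was called higher there too, at 123 and 222 CPM (1.95 ± 0.32, adjusted p = 0.00605). Between cholangiocytes and hepatocytes 8 genes of the list were called higher and 16 lower (12.9 and 25.8%, against 3.63% and 3.3% of all genes). Between sinusoidal and vein clusters 1 of 53 was called, *Slc2a10*, lower in sinusoidal clusters (-6.56 ± 1.40, adjusted p = 0.0325).

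The genes most like each member over 50 sums of clusters and pools were named by Pearson correlation of log2(CPM + 1), as a description over sums that share pools, plates and depth. For *Pck1* these were *Gm15622* (0.855), *Leap2* (0.855) and *Serpina12* (0.854), for *Fbp1* *Hgd* (0.925), *Car5a* (0.865) and *Gnmt* (0.865), and for *Slc2a2* *Foxa2* (0.964), *Mia2* (0.953) and *Crb3* (0.951). For *Hk2* they were *Kcnj10* (0.882), *Naip1* (0.871) and *Trpm2* (0.866), for *Hk1* *Trim35* (0.874), *Eva1b* (0.825) and *Kmt2a* (0.818), and for *Pkm* *Msn* (0.829), *Tmem50a* (0.827) and *Psap* (0.822). *Ldhb* was most like *Adam15* (0.833), *Ddah2* (0.831) and *Socs3* (0.787). For *Pklr* and *Slc2a1* the most alike was a neighbour that shares exon stretches with the member, *Hcn3* with *Pklr* (0.991) and *Gm12868* with *Slc2a1* (0.926). The next for *Pklr* were *Gm11586* (0.984) and *Amdhd1* (0.980), and for *Slc2a1* *Ilvbl* (0.777) and *Ptprs* (0.744). Among the members themselves, *Pklr* and *Pkm* stood at -0.939, *Fbp1* and *Pklr* at 0.853, *Pklr* and *Slc2a2* at 0.833, *Pck1* and *Pklr* at 0.820, and *Pck1* and *Fbp1* at 0.745.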

How the data were processed

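Single cells were sorted into plates and sequenced by Smart-seq2. The authors deposited counts per gene and cell, made by mapping to GRCm38/mm10, with Bowtie, Bowtie2, Subread, featureCounts, bcl2fastq and Seurat named in the submitters' processing notes, and they removed poor and contaminated cells. The counts are not normalized. Strand setting and duplicate removal are not given in the sources used here, and reads without molecular identifiers are not independent molecules, so intervals cover counting error only.

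From the deposited counts, 92 ERCC spike-ins were left out and 0 rows named no gene. The other 46517 genes were summed over the cells of each group and pool with at least 5 cells. A pool (male, replicate 1; female, replicate 2) was the replicate. The sums, from 35858689 counts in hepatocytes and 6241506 in female cholangiocytes to 218419420 in male mesenchymal cells, were fitted with edgeR 4.0.16 in R 4.3.3 (TMM, filterByExpr, quasi-likelihood test). DESeq2 1.42.0 was an alternative. The fit was tested on simulated data. Python 3.11.15 with numpy 2.4.6, scipy 1.17.1, pandas 2.3.3 and matplotlib 3.10.9 did the rest. Lengths are those of the exons of a gene in the annotation. The pools show no pairing between populations (correlations of same-numbered deviations from 0.0574 to 0.0946) or between endothelial clusters (-0.0219 to 0.0999), and do so between mesenchymal groups (0.206 to 0.282). Nothing in the labels says that the sums come from separate animals, so p-values measure the spread between these pools.

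The members and lists were chosen with earlier results of these data known. Named besides the members were genes of the list called with a log2 fold change of at least 3 in size, isozymes of the members, and for each member the 3 genes most like it among those at 20 CPM or more in at least 1 sum. Some genes of the list, which the counts over it include, are not reported here by name. The alternatives were DESeq2, RLE, no filter, a minimum of 10 cells a sum, thinning to 50000 counts a cell, plates as replicates, a block for the pool, single pools left out, and the 4 classes of the labels. Leaving out each sum in turn, leaving out the 26 cells annotated Cont and adding cluster #e7 to the vein clusters were added after seeing the data.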

Additional observations from a re-analysis of the deposited data

Results flagged for a closer look

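Some values of the pools pointed in opposite directions within a class, and the difference between pools was not tested. *Ldhb* in the portal vein against the central vein cluster stood on the log2 scale at 0.37 among male cells and at -0.20 among female cells. *Hk1* in sinusoidal against vein clusters stood at -0.093 and 0.32, and *Hk1* in stellate cells against the mean of mural cells and fibroblasts at 0.039 and -0.87.

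The 2 female hepatocytes, which entered no comparison, held 380 CPM of *Pck1*, 987 CPM of *Fbp1* and 25.3 CPM of *Pkm*, above the limit that a count of 0 allows.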

How the results depend on the processing

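The number of members called kept within 1.5 times its value in 79 of 82 alternatives, and log2 fold changes of members kept their direction and side of the threshold in 348 of 380. With hepatocytes and cholangiocytes summed together, 1 member was called in endothelial cells (6 in the fit reported), 3 in immune cells (5) and 0 in mesenchymal cells (6). There *Hk1* in endothelial cells turned to -0.026. The male and female pools of that class differ in their mix of these cells. With sums per plate, *Ldhb* in immune cells turned to 0.55. The cause was not tested. Leaving out sums or pools gave 7 to 7 members called in hepatocytes, 3 to 6 in cholangiocytes, 1 to 6 in endothelial, 2 to 5 in immune and 1 to 6 in mesenchymal cells, 3 to 6 between cholangiocytes and hepatocytes, and 0 to 0 in the comparisons within the endothelial and mesenchymal classes. The lone hepatocyte sum could not be left out. A lone sum was assumed to vary like the others, and with no residual degrees of freedom a value was given with no test.

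Counts over all genes moved more. DESeq2 called 3188 genes higher and 3768 lower in hepatocytes (2147 and 1273 with edgeR), 2881 and 2272 in cholangiocytes (1770 and 746), 2840 and 2657 in endothelial cells (1933 and 885), 3182 and 2861 in immune cells (2183 and 1230), 3269 and 1592 in mesenchymal cells (2712 and 462) and 3356 and 2621 between cholangiocytes and hepatocytes (992 and 901). It called 490 and 441 between sinusoidal and vein clusters (41 and 176), 158 and 149 between portal and central vein (5 and 9), 572 and 1015 for stellate cells (11 and 5) and 424 and 431 for mural cells (1 and 3). With no filter the totals were 4517 in cholangiocytes (2516), 4955 in endothelial (2818), 5638 in immune (3413) and 5261 in mesenchymal cells (3174), 3755 between cholangiocytes and hepatocytes (1893), 572 for sinusoidal clusters (217), 71 for the portal vein (14), 1027 for stellate (16) and 514 for mural cells (4). Sums per plate gave 5683 in endothelial cells and, in the last 4 of these, 587, 225, 364 and 215. Thinned cells gave 36 for the portal vein, 129 for stellate and 66 for mural cells, at least 10 cells a sum gave 50 for the portal vein, #e7 added to the central vein 36, and RLE gave 0 for mural cells. Leaving out sums gave 926 to 3170 in endothelial and 1597 to 3360 in mesenchymal cells, 107 to 365 for sinusoidal clusters, and 0 to 1 for stellate and 0 to 0 for mural cells.

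With the pool as a block, no pairing being seen between populations, *Pck1* between cholangiocytes and hepatocytes (-6.47), *Pklr* in endothelial cells (-3.23) and *Ldhb* in mesenchymal cells (2.14) were no longer called, *Hk1* in endothelial cells (1.49) was called higher and *Hk2* in cholangiocytes lower. No other call of a member changed with the block.

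Between zones, the log2 ratio of #p4 over #p5 moved by more than its interval for *Pck1* (2.71 with thinned cells, 2.73 as a mean over cells), *Fbp1* (1.14, 1.14 and, on the single plate, 1.13), *Pklr* (0.58 and 0.64) and *Slc2a2* (0.53 and 0.60), and *Slc2a1* turned to -0.59 on the single plate. Isozyme shares, as means of the pools in percent, moved for *Pkm* in hepatocytes (3.72 to 4.19 as a mean over cells, 4.09 thinned and 5.63 without length), *Hk2* in cholangiocytes (0.403 to 1.10 and, thinned, 0.925), *Hk2* in endothelial cells (2.90 to 3.59 thinned and 2.04 without length), *Hk2* in mesenchymal cells (3.74 to 2.65 without length), *Slc2a1* in hepatocytes (20.3 to 22.4 thinned and 13.5 without length) and *Slc2a1* in immune cells (99.6 to 99.4, 99.2 and 99.4). Without length the *Ldhb* share was 0.0694 in hepatocytes, 40.8 in cholangiocytes, 27.0 in endothelial and 25.7 in mesenchymal cells. In #i2 the mean over cells gave 23.4 CPM of *Hk1* and 20.9 CPM of *Hk2*. Shares of cells with a count moved in 63 of 90 cases under thinning or a limit of 20 counts. In hepatocytes *Hk1*, *Hk2* and *Ldhb* rest on few counts, and the part of depth in this was not tested.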

Other observations

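Levels of members in the smaller annotations were carried by single cells. In lymphatic endothelial cells *Pck1* was at 115 CPM in the male pool, with 99.5% of its counts from 1 of 9 cells, and at 0.279 CPM in the female pool, whereas *Fbp1* was at 1.87 CPM in the male pool and at 82.6 CPM in the female pool, where a single cell held every count. In the endothelial cells of the peribiliary vasculature (PBV) *Slc2a1* was at 173 CPM in the male pool, from 1 of 5 cells, and gave no count in the 9 female cells, which allows up to 1.07 CPM. *Pck1* was at 74.0 CPM there in the male pool, again from 1 cell.

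In the venous smooth muscle cells *Pck1* stood at 13.6 and 13.9 CPM, which places them after hepatocytes, lymphatic cells, PBV and cholangiocytes in the order of means. A count was present in 23 of 89 male and 2 of 22 female cells, and 38.6% and 99% of the counts came from 1 cell.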
